A study of Homo sapiens with 20 samples.

Results

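The Krueppel-like factors are a family of DNA-binding proteins, and the transcripts of 7 of its genes, KLF2, KLF3, KLF4, KLF5, KLF6, KLF9 and KLF10, were followed in SUM44 breast cancer cells given estradiol. They are 7 of 11963 genes with a named probe set on the arrays, chosen as a list of symbols, and taken where a probe set has that symbol alone. Each gene is described by its brightest probe set, averaged over the 20 arrays, and its other probe sets were checked against that one. Another 11 measured genes of the wider family are given after the members. The members have 13 probe sets in all, and 4 of the genes have more than 1.

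SUM44 is an established human cell line from an invasive lobular breast carcinoma, so the arrays describe 1 line in culture. All groups shared hormone deprivation for 3 days in charcoal-stripped serum, which the sample text gives as 10% and the series text as 2%. The 5 groups were cells given 1 nM estradiol (E2) for 3 h, cells given vehicle (0.01% ethanol) for 3 h, E2 for 24 h, vehicle for 24 h, and an untreated baseline at 0 h. Each group had 4 arrays from biological replicates (A to D in the titles), and the 24 h E2 group was taken from its titles because its treatment field reads baseline.

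Krueppel-like factors bind GC-rich and CACCC-type DNA elements through zinc fingers at the carboxy terminus, and the rest of the protein differs and decides whether a member activates or represses. Several of the genes are rapidly inducible and are known from epithelia: KLF4 with exit from the cell cycle and differentiation, KLF5 with proliferating epithelial cells. In the mammary gland and uterus the family is studied beside the steroid receptors, since KLF9 can act as a partner of the progesterone receptor and KLF10 was described as a gene induced by TGF-beta and, in human bone cells, by estrogen.

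Start-site windows are shown for KLF4, KLF5, KLF9 and KLF2, so that the DNA beside these results can be read. The KLF6 window and the other KLF5 window were searched but are not printed. The sequences are RefSeq's (GRCh38.p14), 250 bases before and 50 after an annotated start, given 5′ to 3′ along the gene. KLF10 was not searched. Of the other members, 5 had an entry, KLF5 with 2 starts, and KLF3 had none and is named only. The windows are KLF4 at chr9:107489720-107490019 (minus strand), KLF5 at chr13:73058755-73059054 (plus strand), KLF9 at chr9:70414608-70414907 (minus strand) and KLF2 at chr19:16324576-16324875 (plus strand). Capitals mark matches, on either strand, to the GC box GGGCGG, the CCAAT box, the single-arm estrogen response element GGTCA, or the MEF2 site.
KLF4: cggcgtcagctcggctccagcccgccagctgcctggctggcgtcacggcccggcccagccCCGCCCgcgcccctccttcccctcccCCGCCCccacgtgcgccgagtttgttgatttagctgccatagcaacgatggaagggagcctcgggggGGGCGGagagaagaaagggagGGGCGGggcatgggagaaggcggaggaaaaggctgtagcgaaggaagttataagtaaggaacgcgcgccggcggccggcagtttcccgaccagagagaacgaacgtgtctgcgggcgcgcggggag
KLF5: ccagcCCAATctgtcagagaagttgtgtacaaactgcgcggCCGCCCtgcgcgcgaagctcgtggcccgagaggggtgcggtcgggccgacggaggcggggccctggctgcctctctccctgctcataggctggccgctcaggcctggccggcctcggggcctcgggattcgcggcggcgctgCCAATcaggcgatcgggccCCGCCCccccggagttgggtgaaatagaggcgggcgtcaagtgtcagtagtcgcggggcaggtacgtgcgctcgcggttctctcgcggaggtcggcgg
KLF9: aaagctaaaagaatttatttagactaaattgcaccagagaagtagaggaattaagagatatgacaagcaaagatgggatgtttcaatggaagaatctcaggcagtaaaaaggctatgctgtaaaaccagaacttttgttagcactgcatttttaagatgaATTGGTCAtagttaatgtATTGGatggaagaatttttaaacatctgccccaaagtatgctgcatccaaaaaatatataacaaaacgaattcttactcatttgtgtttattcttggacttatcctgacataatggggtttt
KLF2: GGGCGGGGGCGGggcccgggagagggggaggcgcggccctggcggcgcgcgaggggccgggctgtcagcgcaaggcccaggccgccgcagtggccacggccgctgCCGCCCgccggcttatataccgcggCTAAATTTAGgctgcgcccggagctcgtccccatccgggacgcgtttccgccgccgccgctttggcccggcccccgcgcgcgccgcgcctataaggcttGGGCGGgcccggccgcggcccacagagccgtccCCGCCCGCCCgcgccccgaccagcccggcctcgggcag

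The KLF4 window held 4 GC boxes and the KLF2 window 6, a motif found in 45% of the 35116 windows of that length. The KLF5 window printed here held 2 GC boxes and 2 CCAAT boxes (34.6% of windows). The KLF9 window had a GC content of 32.7%, against 69.0% for KLF4 and a median of 58.7% over all windows, and no GC box. It held 1 GGTCA, starting at position -87 from the start, which overlaps the CCAAT match at -90. GGTCA, which 37.4% of windows hold, also matched in the KLF6 window at -223 and at the other KLF5 start at -162. KLF2 held a MEF2 site at -120, which 0.572% of windows hold. The full estrogen response element GGTCANNNTGACC (0.057% of windows), the AP-1 site TGANTCA (7.71%), the cyclic AMP response element TGACGTCA (1.85%), the CACCC box CCACCC (34.3%) and the CArG box (1.29%) had no match in these windows, nor in those of KLF6 and the other KLF5 start. The TATA box TATAAA (11.5%) matched only at that other KLF5 start, at -194.

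KLF4 was about as high at 3 h in vehicle cells as in E2 cells, well above baseline in both, KLF5 and KLF3 were lower with E2 than with vehicle at 3 h, and KLF9 was higher with E2 at 3 h and lower at 24 h. KLF2, KLF6 and KLF10 moved little with E2. All values below are RMA log2 expression, changes are differences on that scale with the standard error of the limma fit after ±, and and adjusted p-values come from the Benjamini-Hochberg method across all 11963 genes, with a threshold of 0.05.

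**Figure D1:**
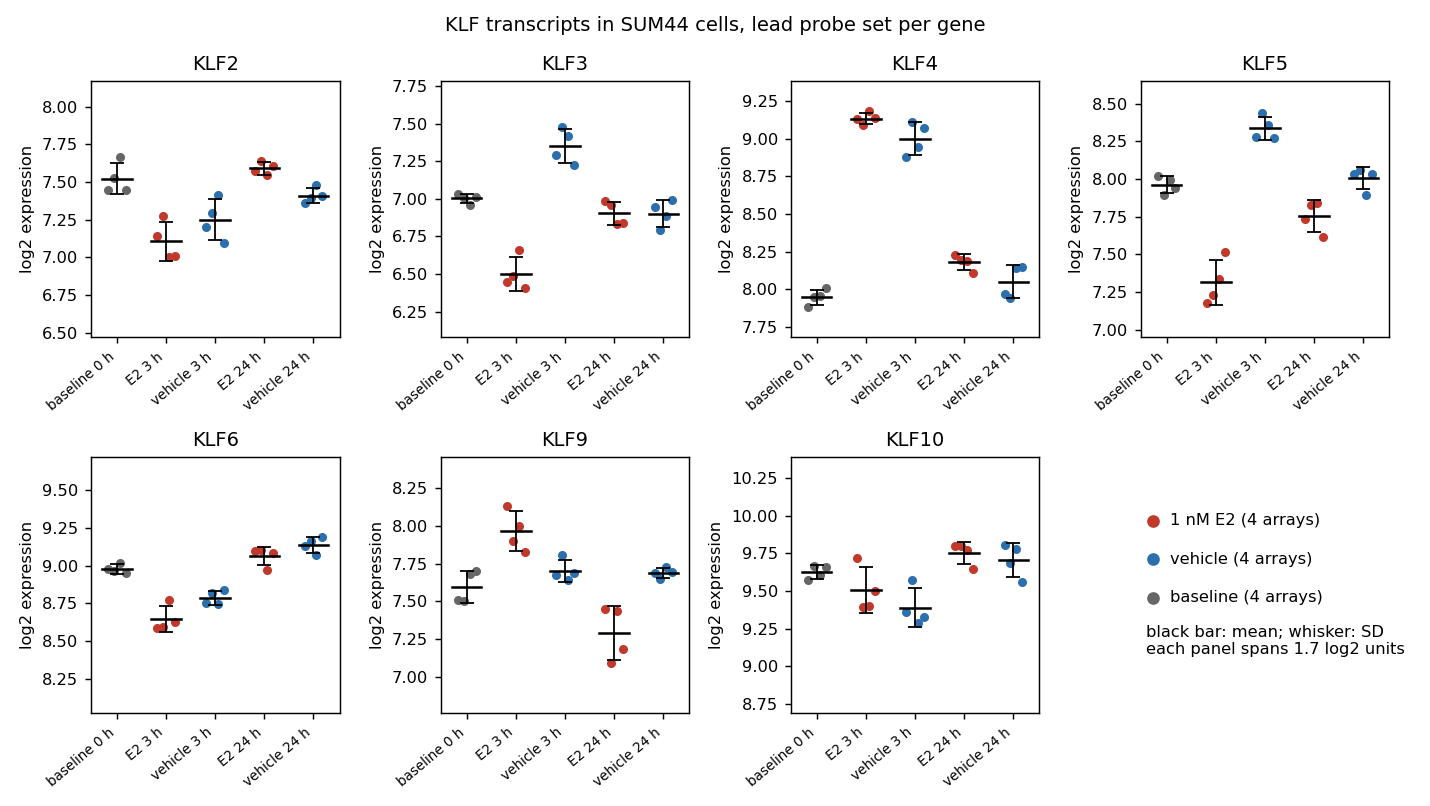
Log2 expression of the lead probe set of each KLF gene in all 20 arrays, with points for arrays, black bars for the mean of 4 arrays and whiskers for the SD. The KLF4 arrays at 3 h stand above all others in both E2 and vehicle, while the KLF5 and KLF3 arrays at 3 h separate with E2 low and vehicle high.

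At 3 h, 4 of the 7 members passed the test of E2 against vehicle, 1 higher and 3 lower, beside 31.1% of all genes. With at least a 1.5-fold change as well, 2 members passed, KLF5 and KLF3, beside 5.31% of all genes. The median change of the 7 was -0.14, against 0.0002 over all genes.

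KLF5, a factor of proliferating epithelial cells, had the largest change. Its 4 E2 arrays at 3 h read 7.18, 7.23, 7.34 and 7.51, against 8.28, 8.44, 8.36 and 8.27 with vehicle. The groups lay far apart, with more than the whole spread of either group between them. KLF5 fell by 1.02 ± 0.07, which is 2.03-fold, with a limma adjusted p of 1.4e-10, and it ranked 104 by size among decreases in 11963 genes. The second KLF5 probe set fell by 0.96 ± 0.07 (adjusted p = 5.9e-10 over all probe sets), from a dimmer signal, 5.68 ± 0.14 in E2 cells, below the level of 6.11 under which 25% of genes lie, and 6.64 ± 0.03 in vehicle cells (SD, n = 4).

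KLF3, a repressor that recruits the CtBP corepressors, showed the same kind of split. With E2 at 3 h its arrays read 6.45, 6.49, 6.66 and 6.41, against 7.29, 7.48, 7.42 and 7.23 with vehicle. Every E2 array lay below every vehicle array. The decrease was 0.85 ± 0.06 on the log2 scale (1.80-fold, limma adjusted p = 7e-10), rank 157 among decreases, on the only KLF3 probe set.

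Part of both differences lay in the vehicle cells. In vehicle at 3 h KLF5 was higher than at baseline by 0.37 ± 0.07 (8.34 ± 0.08 in vehicle and 7.96 ± 0.06 at baseline, SD, n = 4), and KLF3 by 0.35 ± 0.06 (7.35 ± 0.12 in vehicle and 7.003 ± 0.03 at baseline). The limma adjusted p-values of these increases were 0.00031 and 0.00029. The E2 arrays at 3 h also lay wholly below the baseline arrays for both genes, with means 0.65 below baseline for KLF5 and 0.50 below for KLF3. The comparisons with E2 and with baseline share the vehicle arrays, so they are not independent.

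KLF9, which is also induced by glucocorticoid and thyroid hormone in other settings, was higher with E2 at 3 h. The E2 arrays read 8.13, 7.90, 8.003 and 7.83, against 7.67, 7.81, 7.64 and 7.69 with vehicle. The groups did not overlap, but the lowest E2 array was close to the highest vehicle array. The increase was 0.26 ± 0.08 (1.20-fold, limma adjusted p = 0.012), and without E2 replicate A it was 0.21 with an adjusted p of 0.053. A second KLF9 probe set rose by 0.34 ± 0.12 (adjusted p = 0.039), and the third, the dimmest at a mean of 6.12, differed by -0.06 ± 0.08 (adjusted p = 0.61).

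KLF6, a widely expressed factor that rises early after many stimuli, fell by 0.14 ± 0.04 at 3 h (1.11-fold, limma adjusted p = 0.011). The E2 arrays read 8.58, 8.59, 8.77 and 8.62, against 8.75, 8.82, 8.75 and 8.84 with vehicle. E2 replicate C lay among the vehicle arrays, so the groups overlapped. A second KLF6 probe set fell by 0.22 ± 0.04 (adjusted p = 0.00012), and the third did not pass.

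KLF2, KLF4 and KLF10 did not pass at 3 h. KLF2, best known from resting endothelial cells and T cells, differed by -0.14 ± 0.07 (95% interval -0.28 to -0.004, adjusted p = 0.12), and it passed without E2 replicate B (adjusted p = 0.026) or without vehicle replicate D (adjusted p = 0.033). KLF10 differed by 0.12 ± 0.07 (95% interval -0.04 to 0.27, adjusted p = 0.27). KLF4 stood at 9.13 ± 0.04 in E2 cells and 9.001 ± 0.11 in vehicle cells (SD, n = 4), a difference of 0.13 ± 0.05 with adjusted p = 0.071. KLF4 passed, in the same direction, when each array was centred on its median (0.15 ± 0.05, adjusted p = 0.036).

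**Figure D2:**
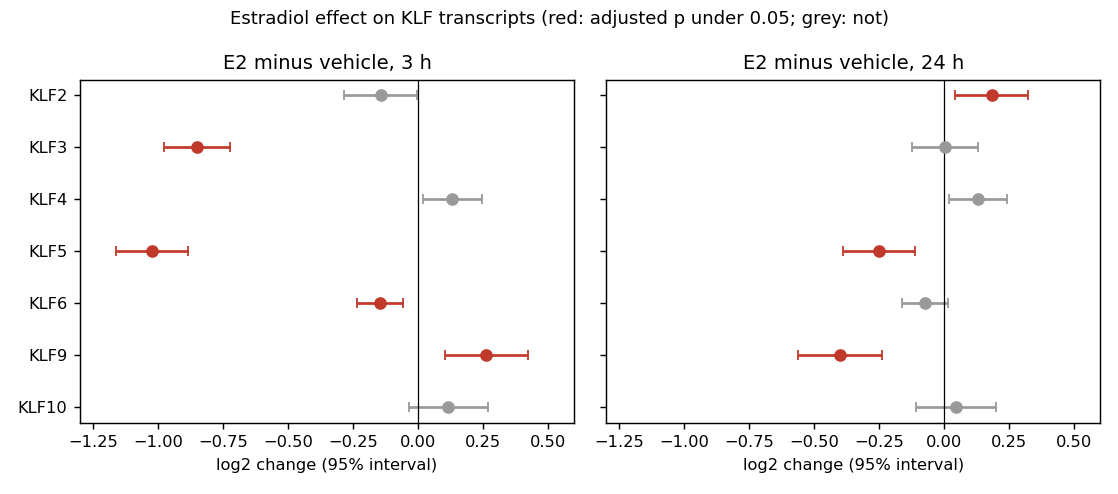
Log2 change of each KLF gene with E2 against vehicle at 3 h (left) and 24 h (right), with 95% intervals from the limma fit. KLF5 (-1.02) and KLF3 (-0.85) stand apart at 3 h, and at 24 h the largest change is that of KLF9 (-0.40).

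At 24 h, 3 of the 7 members passed, KLF2 higher and KLF5 and KLF9 lower, beside 45.7% of all genes. By limma with at least a 1.5-fold change the count was 0 of 7, beside 6.34% of all genes, while 4 members had an unadjusted p under 0.05. The median change was 0.001, against 0.02 over all genes.

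KLF9 now lay lower with E2. Its arrays read 7.45, 7.09, 7.43 and 7.18 with E2, against 7.69, 7.65, 7.73 and 7.69 with vehicle. All E2 arrays lay below the vehicle arrays, and the E2 arrays were the more spread, with an SD of 0.18 against 0.03. The decrease was 0.40 ± 0.08 on the log2 scale (1.32-fold, limma adjusted p = 0.00023), and the second probe set fell by 0.59 ± 0.12 (adjusted p = 0.00056). The dimmest KLF9 probe set differed by 0.03 ± 0.08 (adjusted p = 0.82).

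KLF5 remained lower at 24 h, by a smaller amount. The E2 arrays read 7.73, 7.83, 7.84 and 7.62, against 8.03, 8.06, 7.90 and 8.04 with vehicle. The groups stayed apart. KLF5 fell by 0.25 ± 0.07 (1.19-fold, limma adjusted p = 0.0037), and its second probe set fell by 0.38 ± 0.07 (adjusted p = 0.00011).

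KLF2 rose by 0.18 ± 0.07 at 24 h (1.13-fold, limma adjusted p = 0.032). Its arrays read 7.57, 7.64, 7.54 and 7.61 with E2, against 7.36, 7.39, 7.48 and 7.41 with vehicle, and did not overlap. The call was lost when any of 5 single arrays was left out, E2 replicate B or D or vehicle replicate A, B or D, with adjusted p-values from 0.059 to 0.078.

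For KLF3 the 24 h means were nearly the same, 6.90 ± 0.08 in E2 cells and 6.90 ± 0.09 in vehicle cells (SD, n = 4), while the 95% interval of the difference ran from -0.13 to 0.13. KLF6 differed by -0.07 ± 0.04 (adjusted p = 0.16), while its second probe set fell by 0.19 ± 0.04 (adjusted p = 0.00049). The third KLF6 probe set differed by 0.11 ± 0.07 (adjusted p = 0.27). KLF10 differed by 0.04 ± 0.07 (95% interval -0.11 to 0.20, adjusted p = 0.65). KLF4 differed by 0.13 ± 0.05 (adjusted p = 0.054), and by 0.16 ± 0.05 (adjusted p = 0.018) when each array was centred on its median.

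**Figure D3:**
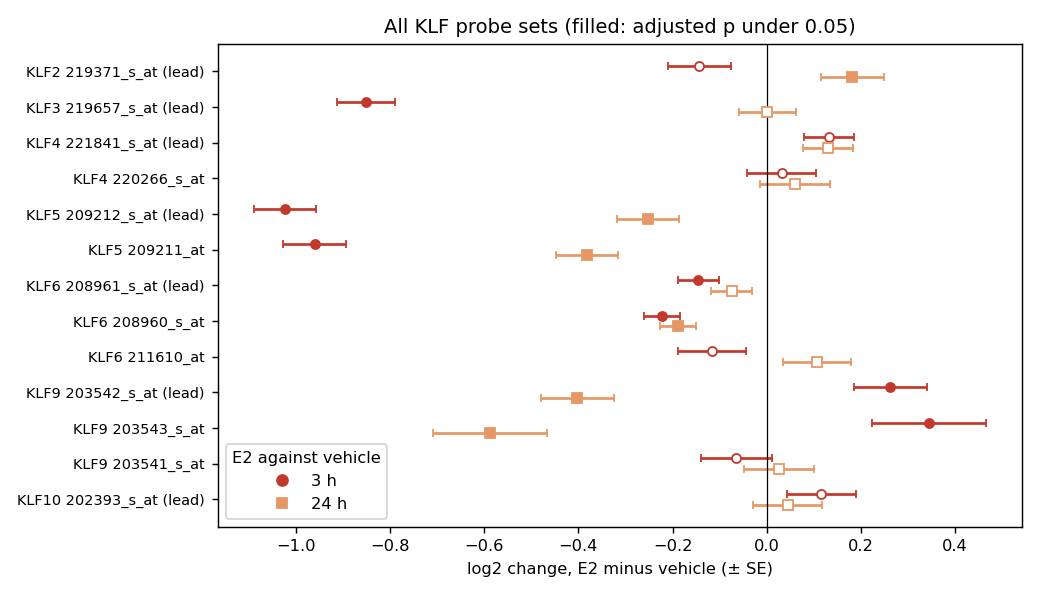
Log2 change with E2 against vehicle at 3 h (circles) and 24 h (squares) for each of the 13 KLF probe sets, with standard errors and filled symbols where the adjusted p over all probe sets was under 0.05. Both KLF5 probe sets and 2 of the 3 KLF9 probe sets move alike, while the dimmest probe set of KLF9 stays near 0.

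The effect of E2 itself differed between the times for 4 of the 7 members, beside 34.3% of all genes, and for 3 of them by at least 1.5-fold, beside 6.41%. The difference (24 h minus 3 h) was 0.85 ± 0.09 for KLF3 (limma adjusted p = 1.6e-07) and 0.77 ± 0.09 for KLF5 (1.6e-06). KLF5 was less reduced at 24 h, and for KLF3 the 24 h means were nearly the same. The difference was -0.66 ± 0.11 for KLF9 (6.5e-05), whose effect changed sign, and 0.33 ± 0.09 for KLF2 (0.011). On the second KLF9 probe set it was -0.93 ± 0.17 (adjusted p = 0.00027), and on the dimmest 0.09 ± 0.11 (adjusted p = 0.59). For KLF4 the difference was -0.002 ± 0.08, with a 95% interval from -0.16 to 0.16. Between the times the vehicle arrays of KLF3 and KLF5 changed by -0.45 ± 0.06 and -0.33 ± 0.07, while those of KLF2 (0.16 ± 0.07, adjusted p = 0.084) and KLF9 (-0.01 ± 0.08, adjusted p = 0.92) did not pass the test.

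KLF4, a factor of epithelial differentiation and 1 of the genes used to reprogram cells, differed more between vehicle at 3 h and baseline than between E2 and vehicle. Its vehicle arrays at 3 h read 8.88, 9.11, 8.95 and 9.07, against 7.88, 7.95, 7.95 and 8.01 at baseline. The groups were separated by far more than the spread within either. KLF4 rose by 1.05 ± 0.05 (2.08-fold, limma adjusted p = 1.1e-10) and ranked 15 among all increases in that comparison. Its second, dimmer probe set rose by 0.30 ± 0.07 (adjusted p = 0.0078).

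By 24 h this rise was gone. KLF4 in vehicle stood at 7.97, 7.94, 8.14 and 8.15, lower than in vehicle at 3 h by 0.95 ± 0.05 (limma adjusted p = 1.8e-10), and differed from baseline by 0.10 ± 0.05 (adjusted p = 0.24). The E2 arrays took the same course, with 8.18 ± 0.05 at 24 h and 9.13 ± 0.04 at 3 h (SD, n = 4), a decrease of 0.95 ± 0.05. In order of level, E2 at 3 h and vehicle at 3 h came first with overlapping arrays, then E2 and vehicle at 24 h, also overlapping, and then baseline, whose arrays overlap vehicle at 24 h and lie below E2 at 24 h. On the second probe set vehicle at 24 h was lower than baseline by 0.24 ± 0.07 (adjusted p = 0.047), so the return went further there.

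Against baseline, 6 of the 7 members passed in vehicle at 3 h, 3 higher (KLF4, KLF5, KLF3) and 3 lower (KLF2, KLF6, KLF10), beside 20% of all genes. KLF2 fell by 0.27 ± 0.07 (adjusted p = 0.0059) and KLF6 fell by 0.19 ± 0.04 (adjusted p = 0.0027), and the vehicle arrays of both lay wholly below the baseline arrays. KLF10, the TGF-beta-inducible member, fell by 0.24 ± 0.07 (adjusted p = 0.025), with overlapping arrays, and lost the call when any of 5 single arrays was left out. On the second KLF6 probe set the change was -0.10 ± 0.04 (adjusted p = 0.075). KLF9 differed by 0.11 ± 0.08 (adjusted p = 0.4). In vehicle at 24 h KLF6 was the 1 member whose lead probe set passed against baseline, higher by 0.16 ± 0.04 (adjusted p = 0.016), beside 11.9% of all genes, and not without vehicle replicate D (adjusted p = 0.051). The second probe sets of KLF6 (0.25 ± 0.04, adjusted p = 0.00025) and KLF5 (0.26 ± 0.07, adjusted p = 0.014) were also higher in vehicle at 24 h than at baseline. The third KLF6 probe set was not (-0.08 ± 0.07, adjusted p = 0.51).

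Between 24 h and 3 h the vehicle cells changed in 5 of the 7, beside 28.9% of all genes. KLF6 (0.35 ± 0.04) and KLF10 (0.32 ± 0.07) were higher at 24 h, and KLF4, KLF3 (-0.45 ± 0.06) and KLF5 (-0.33 ± 0.07) were lower, the KLF5 decrease only on its brighter probe set (-0.04 ± 0.07 on the other). The second KLF6 probe set also rose by 0.35 ± 0.04, and the third differed by -0.01 ± 0.07 (adjusted p = 0.93). Among E2 cells all 7 passed between the times, beside 43.8% of all genes. KLF9 fell by 0.68 ± 0.08 and KLF4 as above, while KLF2 rose by 0.48 ± 0.07, KLF5 by 0.44 ± 0.07, KLF6 by 0.42 ± 0.04, KLF3 by 0.40 ± 0.06 and KLF10 by 0.25 ± 0.07. The second KLF9 probe set fell by 0.86 ± 0.12, and the dimmest differed by 0.02 ± 0.08 (adjusted p = 0.85). KLF10 had the narrowest span of group means, 0.36, between 9.39 in vehicle at 3 h and 9.75 with E2 at 24 h.

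The genes whose course was closest to a member were found by the root mean square difference of the 4 group means from baseline, among genes whose 5 group means spanned at least 1. For KLF5 these were STK17B (0.087), GPR37 (0.10) and NVL (0.12). For KLF4 they were NAB2 (0.23), a corepressor of EGR proteins, PTPRE (0.24) and TNFRSF12A (0.25), so no gene followed KLF4 as closely as STK17B followed KLF5. At 3 h KLF4 stood 1.19 above baseline with E2 and 1.05 with vehicle. The E2 and vehicle values lay further apart for NAB2 (1.37 and 0.94), PTPRE (1.26 and 0.59) and TNFRSF12A (0.78 and 1.28). The other members spanned less than 1 and were not matched.

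Of 19 other genes of the KLF and SP families, 11 were measured. At 3 h 2 were higher and 2 lower with E2, and at 24 h 2 were higher and 1 lower. Over all genes 31.1% passed at 3 h (1619 higher and 2101 lower) and 45.7% at 24 h (2572 higher and 2897 lower), so the family counts were near or below those shares. The same shares apply to the lists that follow, and the median change over all genes was 0.0002 at 3 h and 0.02 at 24 h. KLF13 was higher in vehicle at 3 h than at baseline by 0.73 ± 0.07, and lower with E2 than with vehicle by 0.38 ± 0.07 at 3 h (adjusted p = 0.000201) and by 0.22 ± 0.07 at 24 h (adjusted p = 0.0156). Its mean with E2 at 3 h, 7.07, stayed above the baseline mean of 6.72, unlike KLF5 and KLF3, and its E2 effect did not pass the test of a difference between the times (0.16 ± 0.10, adjusted p = 0.227). SP2 rose by 0.11 ± 0.04 at 3 h. SP3, which binds the same GC boxes, rose by 0.27 ± 0.04 at 3 h and by 0.22 ± 0.04 at 24 h. SP4 fell by 0.25 ± 0.07 at 3 h on a dim probe set (4.91 with E2 and 5.16 with vehicle), and SP1 rose by 0.16 ± 0.07 at 24 h, close to the threshold (adjusted p = 0.0498). The medians of the 11 were -0.08 at 3 h and 0.13 at 24 h.

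**Figure D4:**
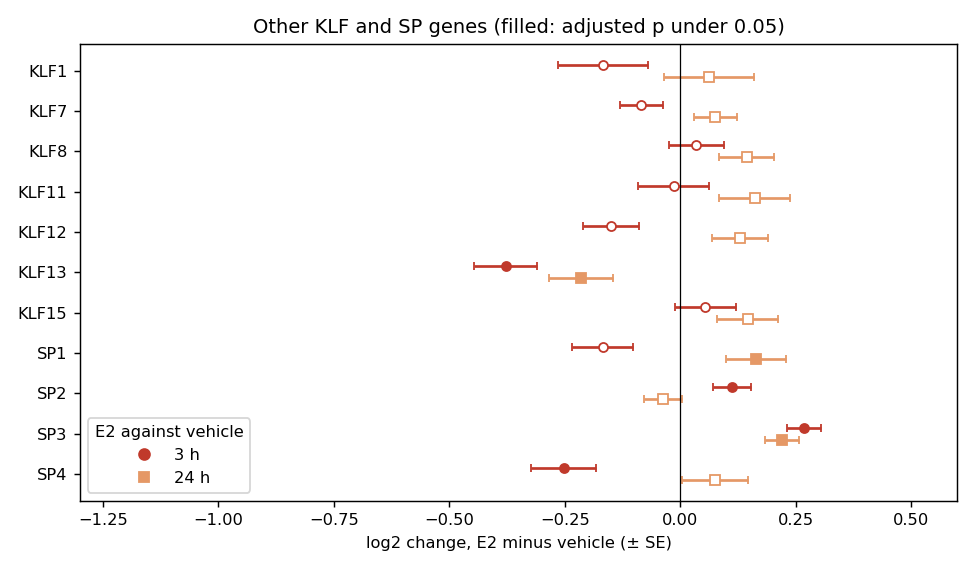
Log2 change with E2 against vehicle at 3 h (circles) and 24 h (squares) for the 11 other measured KLF and SP genes, with standard errors and filled symbols where the adjusted p was under 0.05. KLF13 is lower and SP3 higher at both times, and all changes are smaller than those of KLF5 and KLF3 at 3 h.

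Genes that act on KLF proteins moved in both directions. Of 15 measured corepressors, coactivators and ubiquitin ligases, 4 rose and 5 fell at 3 h, and 2 rose and 5 fell at 24 h, with medians of -0.01 and -0.05, beside 31.1% and 45.7% of all genes passing, and the 24 h count was close to that share. WWP1, a ubiquitin ligase known to target KLF5, rose by 0.25 ± 0.03 at 3 h and by 0.33 ± 0.03 at 24 h. SIAH1, a ubiquitin ligase reported to target KLF10, fell by 0.42 ± 0.03 at 3 h and fell by 0.41 ± 0.03 at 24 h. The corepressor gene SIN3B rose by 0.53 ± 0.07 at 3 h and differed by 0.06 ± 0.07 at 24 h (limma adjusted p = 0.469). The acetyltransferase gene KAT2B fell by 0.23 ± 0.05 at 3 h and by 0.83 ± 0.05 at 24 h.

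Among 14 upstream kinases and factors, 2 rose and 5 fell at 3 h, and 0 rose and 8 fell at 24 h by limma (0 and 9 at an unadjusted p under 0.05), with medians of -0.08 and -0.13, beside 31.1% and 45.7% of all genes passing in either direction. TGFBR2, a receptor of TGF-beta, fell by 2.00 ± 0.06 at 3 h (7.21 with E2 and 9.21 with vehicle) and fell by 0.45 ± 0.06 at 24 h. MEF2A rose by 0.74 ± 0.04 at 3 h and fell by 0.24 ± 0.04 at 24 h, and SMAD3 fell by 0.42 ± 0.06 at 3 h and fell by 1.04 ± 0.06 at 24 h.

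Of 20 measured genes reported as KLF targets, 7 rose and 2 fell at 3 h, and 12 rose and 0 fell at 24 h by limma (13 and 1 at an unadjusted p under 0.05). Beside these counts 31.1% and 45.7% of all genes passed in either direction. The medians were 0.10 and 0.23, against 0.0002 and 0.02 over all genes. Several are also known estrogen-responsive genes. SMAD7, which KLF10 is reported to repress, rose by 2.52 ± 0.05 at 3 h and by 0.70 ± 0.05 at 24 h. CCND1 rose by 1.51 ± 0.05 at 3 h and by 0.72 ± 0.05 at 24 h. MYC rose by 2.35 ± 0.09 at 3 h and by 1.02 ± 0.09 at 24 h, and KRT19 by 0.59 ± 0.04 and 0.66 ± 0.04.

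Arrays of the same group correlated at 0.998 to 0.999 and arrays of different groups at 0.988 to 0.998, and 0 pairs were identical. All 7 luminal markers (ESR1, GATA3, FOXA1, KRT8, KRT18, KRT19 and EPCAM) were above the dim level, 6.11, in every group. The stromal markers COL1A1 and PDGFRB and the immune marker CD3D were above it in every group too, so passing it does not by itself mark a lineage. The mean level of the 7 luminal markers was 12.67 to 12.78 with E2 and 13.14 to 13.15 with vehicle at 3 h. They did not all move alike, since KRT19 rose by 0.59 ± 0.04 at 3 h. At 24 h the luminal mean was 13.1 to 13.13 with E2 and 13.06 to 13.11 with vehicle. Of the 4 measured endothelial markers, the lineage KLF2 is best known from, only VWF was above the dim level in every group. The mean level of the 4 endothelial markers together was 5.68 to 5.74 with E2 and 5.65 to 5.76 with vehicle at 3 h. The 3′ minus 5′ signal of the ACTB control probe sets, a sign of RNA or labelling quality, was 0.343 to 0.419 with E2 and 0.291 to 0.339 with vehicle at 3 h, and 0.456 to 0.479 at baseline. That of GAPDH was -0.153 to -0.129 with E2 and -0.122 to -0.104 with vehicle at 3 h. Neither pair of ranges overlapped at 3 h. Baseline and vehicle at 3 h were also apart for ACTB, but not for GAPDH (-0.139 to -0.107 at baseline). The part of RNA quality in the 3 h results, and in the comparisons with baseline such as that of KLF4, was not tested. At 24 h the ACTB ranges overlapped, 0.365 to 0.395 with E2 and 0.358 to 0.435 with vehicle, and both lay below that of baseline.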

How the data were processed

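Per the labels, RNA was labelled and hybridised to Affymetrix human expression arrays, 1 array a sample. The authors deposited log2 values, 1 for each probe set; the submitters' processing notes name RMA and affy, and versions are not given in the sources used here. RMA normalizes across arrays, so a change in total RNA per cell would not show, and the number of arrays limits precision.

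Of 22277 probe sets, 62 controls were left out. The platform annotation gave 1 symbol for 19064, several for 1043 and none for 2108. The brightest single-symbol probe set represented each of 11963 genes, and no dim gene was removed. Of the 13 member probe sets, 11 end in _s_at, which marks probes shared by several transcripts. All 20 arrays entered 1 limma 3.58.1 fit in R 4.3.3 (5 group means, moderated by eBayes, two-sided tests, no block), which was tested on simulated data. The Benjamini-Hochberg adjustment ran over all genes, at 0.05, or over 22215 probe sets where other probe sets are named. Dim means below 6.11, the level under which 25% of genes lie.

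The members and lists were chosen with earlier results of these data known. Named genes are the members, up to 3 of each list by smallest p in each E2 comparison, and the 3 genes closest in course. Alternatives covered the block, scaling, dim genes, probe set choice, variance prior, array weights, adjustment, fold size and single arrays. Columns of other samples numbered 0.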

Additional observations from a re-analysis of the deposited data

Results flagged for a closer look

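KLF5 had 1 array far from the others of its group, vehicle at 24 h replicate C, at 7.90 where the other 3 lay between 8.03 and 8.06. About 1 in 20 such groups of 4 would stand out by chance. Without that array KLF5 was lower with E2 at 24 h by 0.29 ± 0.07 (log2, limma adjusted p = 0.0022).

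The effect of E2 differed between 24 h and 3 h, by the interaction term of the limma fit, for 4 members. The differences (24 h minus 3 h) were 0.33 ± 0.09 for KLF2, 0.85 ± 0.09 for KLF3, 0.77 ± 0.09 for KLF5 and -0.66 ± 0.11 for KLF9.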

How the results depend on the processing

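Of the alternatives run, 0 reversed a called change of a member. The log2 changes kept their side of the threshold in 429 of 448 repeats that left out 1 array and in 487 of 539 under other alternatives. Many of these others could not reverse a change, because they leave the log2 change itself as it was. These are the block, variance prior, adjustment, fold size, leaving out dim genes, testing all probe sets, and fitting only the groups compared. A stricter adjustment or fold size can only remove calls. Same-letter deviations correlated at -0.245 to 0.37, with the highest values between E2 at 24 h and 3 h (0.251 for A and 0.37 for D). Whether the replicate letters pair the arrays was not settled by this. With the replicate block the counts were the same as without it in each of the 7 comparisons (4 of 7 for E2 at 3 h, 3 for E2 at 24 h).

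The counts of members moved mainly with the strictness of the call. With Bonferroni adjustment they were 2 for E2 at 3 h, 0 for E2 at 24 h, 2 for the difference between times, 1 for vehicle at 3 h and 0 for vehicle at 24 h against baseline, and 3 for vehicle between the times. With at least a 1.5-fold change they were 2, 0, 1 and 0 for E2 at 3 h, E2 at 24 h, and vehicle at 3 h and at 24 h against baseline, 1 for vehicle between the times and 2 for E2 between the times. Vehicle at 24 h against baseline gave 0 after quantile normalization again (KLF6 at adjusted p = 0.052), 2 with the most variable probe set per gene, and 0 to 1 with single arrays left out (0 without vehicle 24 h replicate D). KLF4 passed for E2 at both times after quantile normalization again (0.14 and 0.16), with eBayes trend and robust, with array weights and without the dimmest 25% of genes; the cause was not tested. Other alternatives kept each count within 1.5 times. The arrays, 4 a group, limit small changes such as those of KLF2 and KLF4.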

Other observations

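The antisense transcript KLF3-AS1, measured on a dim probe set, was lower with E2 at 24 h by 0.39 ± 0.07 (5.38 with E2 and 5.78 with vehicle, limma adjusted p = 0.000153), where the KLF3 means were nearly equal, and differed by 0.10 ± 0.07 at 3 h (adjusted p = 0.361), where KLF3 fell. KLF9-DT, the divergent transcript beside KLF9, was also dim and differed by -0.07 ± 0.08 at 3 h and 0.15 ± 0.08 at 24 h, and passed at neither time. Both were chosen after their values were seen.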
